A study of Rattus norvegicus with 25 samples.

Results

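The miRNAs examined here are the sperm copies of 6 miRNAs that earlier work has tied to opioid signalling, namely miR-339, miR-103, miR-107, miR-190a, miR-212 and miR-132. They were chosen by name, as every arm of these 6 miRNAs in a matrix of 562 rat mature miRNAs, which gave 10 members. They formed 4 families, with 2 members from miR-339, 2 from miR-103 and miR-107, 2 from miR-190a and 4 from miR-132 and miR-212. The rule used names and no measured value, although earlier results of these data were known when it was made. Mature sperm of F0 Sprague-Dawley males was compared between 4 groups. The F0_SAL group (n = 7) self-administered intravenous saline and the F0_MOR group (n = 7) morphine at 0.75 mg/kg/infusion, in daily 3-h sessions over 60 days, and sperm was collected when self-administration ended. The F0_ABS-SAL (n = 5) and F0_ABS-MOR (n = 6) males had the same saline or morphine exposure and then 90 days of abstinence before collection. All sperm came from the cauda epididymis, where mature sperm are stored, and was purified by a double swim-up. The males were not genetically modified. The deposited columns carry the words REG and TO, which the sources used here do not expand. REG was read as nonabstinent and TO as abstinent because only that reading gives the right number of libraries in each group. Library letters used below come from the column names and could not be tied to single males. The abstinent males were sampled later and were thus older, and no library batch was given, so abstinence, age and batch cannot be told apart in any comparison between timepoints.

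A miRNA is a short RNA that guides an Argonaute protein to messenger RNAs, mainly by pairing of its seed, bases 2 to 8 from the 5′ end, and lowers their translation or stability. Each hairpin precursor can give 2 mature RNAs, one from the 5′ arm (5p) and one from the 3′ arm (3p), which have different seeds and so different targets. In neurons and cell lines, miR-339, miR-103, miR-107, miR-132 and miR-212 have been reported to target transcripts of the mu-opioid receptor, the receptor through which morphine acts. miR-190 has been linked to signalling of that receptor through the transcription factor NeuroD. Sperm transcribe little, and their miRNAs come from earlier germ cells and from vesicles of the epididymis.

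The mature sequences below show which members can act through the same seed and which reads can be confused. They were taken from RefSeq (GRCr8), which held 9 of the 10 members (520 of all 562 miRNAs). The seed is in capitals.
rno-miR-103-3p: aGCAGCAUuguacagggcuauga
rno-miR-107-3p: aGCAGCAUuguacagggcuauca
rno-miR-132-3p: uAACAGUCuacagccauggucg
rno-miR-212-3p: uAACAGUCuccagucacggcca
rno-miR-132-5p: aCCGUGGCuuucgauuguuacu
rno-miR-212-5p: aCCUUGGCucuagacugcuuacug
rno-miR-339-5p: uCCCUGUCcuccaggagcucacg
rno-miR-339-3p: uGAGCGCCucgacgacagagcca
rno-miR-190a-5p: uGAUAUGUuugauauauuaggu
rno-miR-190b-5p: uGAUAUGUuugauauuagguu

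miR-103-3p and miR-107-3p share their first 21 of 23 bases and differ by 1 substitution, G22C, with positions counted from 1 at the 5′ end and the base of miR-103-3p first. The authors' alignment allowed 1 mismatch with a 20-base alignment seed, so reads that end early or carry an error near the 3′ end could be counted for either, and the split between the pair is uncertain. miR-103-3p matched the entry at chr3:138963278-138963300 (+), within Pank2, and miR-107-3p the entry at chr1:241750431-241750453 (-), within Pank1. Both host genes encode pantothenate kinases, enzymes of coenzyme A synthesis. The entry matched by miR-103-3p is that of Mir103a2. The counts are per mature miRNA and do not tell from which gene the reads came. The 4 arms of miR-132 and miR-212 lie within 342 bases at chr10:60521771-60522112 (+). Their 3p arms share a seed and differ by A10C, C14U, U17C, U20C and G22A, counted the same way with miR-132-3p first, whereas their 5p arms have different seeds. The arms of miR-339 lie at chr12:20391410-20391432 (5p) and chr12:20391445-20391467 (3p), within C12h7orf50, and miR-190a-5p at chr8:76732228-76732249 (-), within Tln2, which encodes the cytoskeletal protein talin 2. miR-190b-5p, from chr2:177812471-177812491 (+), is not a member and is printed because it has the seed of miR-190a-5p.

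The libraries held from 1032386 to 3203211 miRNA counts, and the group medians lay between 1428308 (F0_MOR) and 2334377 (F0_ABS-SAL). No count of 1 was present in the matrix, and the smallest count above 0 was 2. The 10 members together held 0.174% to 0.333% of a library's counts, and miR-103-3p alone held 77.9% of all member counts. miR-103-3p was the most abundant member, with a mean of 1919.7 CPM over the 25 libraries (CPM being the count scaled to the same total in every library), or 83.5 CPM per base of its length, and ranked 49th of the 562 miRNAs. miR-132-3p followed at 190.04 CPM (8.64 per base) and miR-132-5p at 164 CPM (7.43 per base), so both arms of miR-132 had close levels. miR-107-3p stood at 69.7 CPM (3.03 per base), miR-212-5p at 40.6 CPM (1.69 per base), miR-339-5p at 31.0 CPM (1.35 per base), miR-212-3p at 26.8 CPM (1.22 per base) and miR-339-3p at 18.5 CPM (0.804 per base). miR-190a-5p had a mean of 6.77 CPM (0.308 per base), and some libraries held as few as 2 reads of it. The lowest library for miR-103-3p (1373 CPM) was above the highest library for any other member (305 CPM), whereas every neighbouring pair below it in this order had overlapping ranges. miR-190a-3p was seen in 5 of 25 libraries with 2 reads in each, in 2 F0_SAL libraries and in 1 library of each other group. It was the 1 member of 10 that did not pass the filter on low counts, which 317 of 562 miRNAs passed, and it was not tested.

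**Figure D1:**
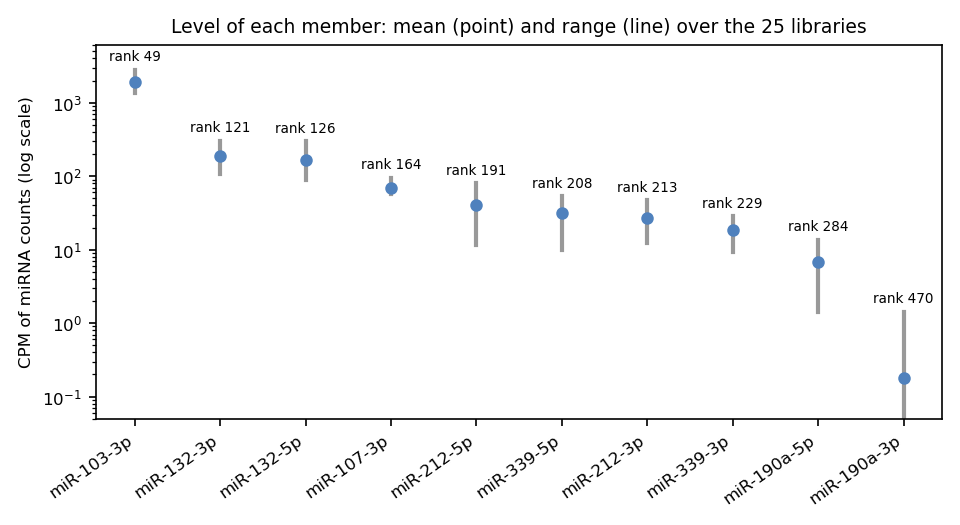
Mean level (points) and range over the 25 libraries (lines) of the 10 members in CPM of miRNA counts, on a log scale, with the rank of each mean among 562 miRNAs. miR-103-3p, at rank 49, stands apart from the others, and the line of miR-190a-3p runs off the lower edge because 20 of its 25 libraries are at 0.

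The label of mature sperm was checked against fixed lists of marker miRNAs, each summed in CPM. The 4 sperm markers (miR-34c-5p, miR-34b-5p, miR-34b-3p and miR-449a-5p) were all counted and made up 378244 to 574372 CPM in F0_SAL and 346479 to 468857 in F0_MOR. After abstinence they made up 277821 to 447621 CPM with saline and 220525 to 465249 with morphine. All 4 muscle markers were counted and summed to 10659 to 15997 CPM in F0_SAL and 12599 to 16317 in F0_MOR, and to 19658 to 83759 and 18073 to 45750 in the saline and morphine groups after abstinence. Of the epithelial list 5 of 6 were counted (miR-205-5p was not analysed here), and their sum ranged from 4999 to 9929 CPM in F0_SAL and from 6930 to 11105 in F0_MOR, against 10139 to 18885 in F0_ABS-SAL and 8102 to 20323 in F0_ABS-MOR. The 2 endothelial markers summed to 442 to 743 CPM in F0_SAL and 559 to 740 in F0_MOR, and to 825 to 3421 and 1074 to 1662 in the abstinent groups. Library R of F0_ABS-SAL and library Q of F0_ABS-MOR stood apart, with the lowest sperm and the highest muscle sum of their groups. The summed leukocyte, erythroid and neural markers overlapped between all 4 groups, and miR-486-5p of the erythroid list was not analysed here. In bulk RNA, fewer cells of a type and less RNA per cell cannot be told apart.

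The first question was whether morphine changed these miRNAs when sperm was collected at the end of self-administration. It was put with edgeR's quasi-likelihood test in 1 model of the 4 groups, and a miRNA was called at a Benjamini-Hochberg adjusted p under 0.1, taken over all 317 miRNAs tested, with an absolute log2 fold change above 0.58. No member was called between F0_MOR and F0_SAL (0 of 9), beside a background of 0.0% of the 317 miRNAs. DESeq2 and limma also called 0 members, and limma called 1 other miRNA. At an unadjusted p under 0.05, edgeR found 1 of the 9 members, against 7.26% (23) of all miRNAs tested, and DESeq2 found 30 and limma 37 miRNAs in all. Values below are normalized counts, that is, counts scaled by TMM factors to a common library size.

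The member with the smallest p was miR-339-5p. Its normalized counts ran from 23.3 through a median of 32.8 to 69.1 in F0_SAL and from 37.6 through 57.8 to 80.6 in F0_MOR. The groups overlapped, though 6 of 7 F0_MOR libraries were above the F0_SAL mean and 2 were above every F0_SAL library. The means were 59.2 ± 14.8 (SD, n = 7) and 39.4 ± 18.3 (SD, n = 7). The log2 fold change was 0.59 (SE 0.27, 95% interval 0.03 to 1.14), with an adjusted p of 0.617 in edgeR. An exact permutation test of its log2 CPM, 1 of 36 such tests over 9 members and 4 comparisons, gave an unadjusted two-sided p of 0.0373. That p ran from 0.0111 to 0.0705 with 1 library left out, and was above 0.05 without any one of A, B, N and U (F0_MOR) or C, F, H and O (F0_SAL). Its 3p arm, the arm reported to target the receptor transcript, stood at 35.3 ± 11.5 in F0_MOR and 31.7 ± 9.68 in F0_SAL (log2 fold change 0.14, interval -0.37 to 0.66).

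The remaining members had smaller or less certain differences at this timepoint. miR-103-3p, the most abundant, ranged from 3287 to 5456 in F0_SAL and from 2716 to 4895 in F0_MOR, nearly the same span. Its log2 fold change of -0.10 had an interval of -0.42 to 0.22. miR-107-3p had a log2 fold change of -0.12 (interval -0.43 to 0.19). In the family of miR-132 and miR-212, the log2 fold changes were 0.02 for miR-132-3p, -0.28 for miR-132-5p, 0.18 for miR-212-3p and -0.07 for miR-212-5p. Their intervals all included 0 and reached from -0.83 (miR-132-5p) to 0.76 (miR-212-3p). miR-190a-5p, at 7.57 ± 5.17 in F0_MOR and 11.5 ± 5.12 in F0_SAL, had the widest interval (-1.47 to 0.14, log2 fold change -0.67), and its raw counts were between 2 and 11 in F0_MOR.

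After 90 days of abstinence, the same question between F0_ABS-MOR and F0_ABS-SAL again gave no member called (0 of 9, beside 0.0% of 317), with 0 also by DESeq2 and limma. At an unadjusted p under 0.05, edgeR found 0 of the 9 members and 4 of all miRNAs (1.26%), while DESeq2 found 5 and limma 3 of all miRNAs. The log2 fold changes of the members lay between -0.36 (miR-190a-5p) and 0.28 (miR-132-5p), with intervals from -1.14 to 0.92 over the 9. For miR-107-3p, the F0_ABS-SAL libraries held 103.96, 115.1, 144.85, 141.8 and 130.4 normalized counts. The F0_ABS-MOR libraries ran from 85.0 through a median of 104.35 to 118, and all 6 were below the F0_ABS-SAL mean of 127. The log2 fold change was -0.30 (SE 0.17, interval -0.65 to 0.05, adjusted p of 1.00 in edgeR), with an unadjusted exact permutation p of 0.0325. That p ran from 0.0190 to 0.0810 with 1 library left out, and was above 0.05 without any one of D, I and Q (F0_ABS-MOR) or L, R and Y (F0_ABS-SAL). Its near-identical partner miR-103-3p had a log2 fold change of -0.20 (interval -0.56 to 0.16).

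Whether the morphine effect differed between the timepoints was tested as an interaction. It called 0 of 9 members (0.0% of 317), with 10 miRNAs (3.15%) at an unadjusted p under 0.05 in edgeR, 11 in DESeq2 and 6 in limma. miR-339-5p had the largest value among the members, with a morphine effect 0.83 higher on the log2 scale at the end of self-administration than after abstinence (interval 0.01 to 1.65, adjusted p of 0.953). The mean morphine effect over both timepoints also called 0 of 9 members (0.0% of 317), with 6 miRNAs (1.89%) at an unadjusted p under 0.05 in edgeR, 10 in DESeq2 and 26 in limma, where 1 miRNA outside the members was called.

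**Figure D2:**
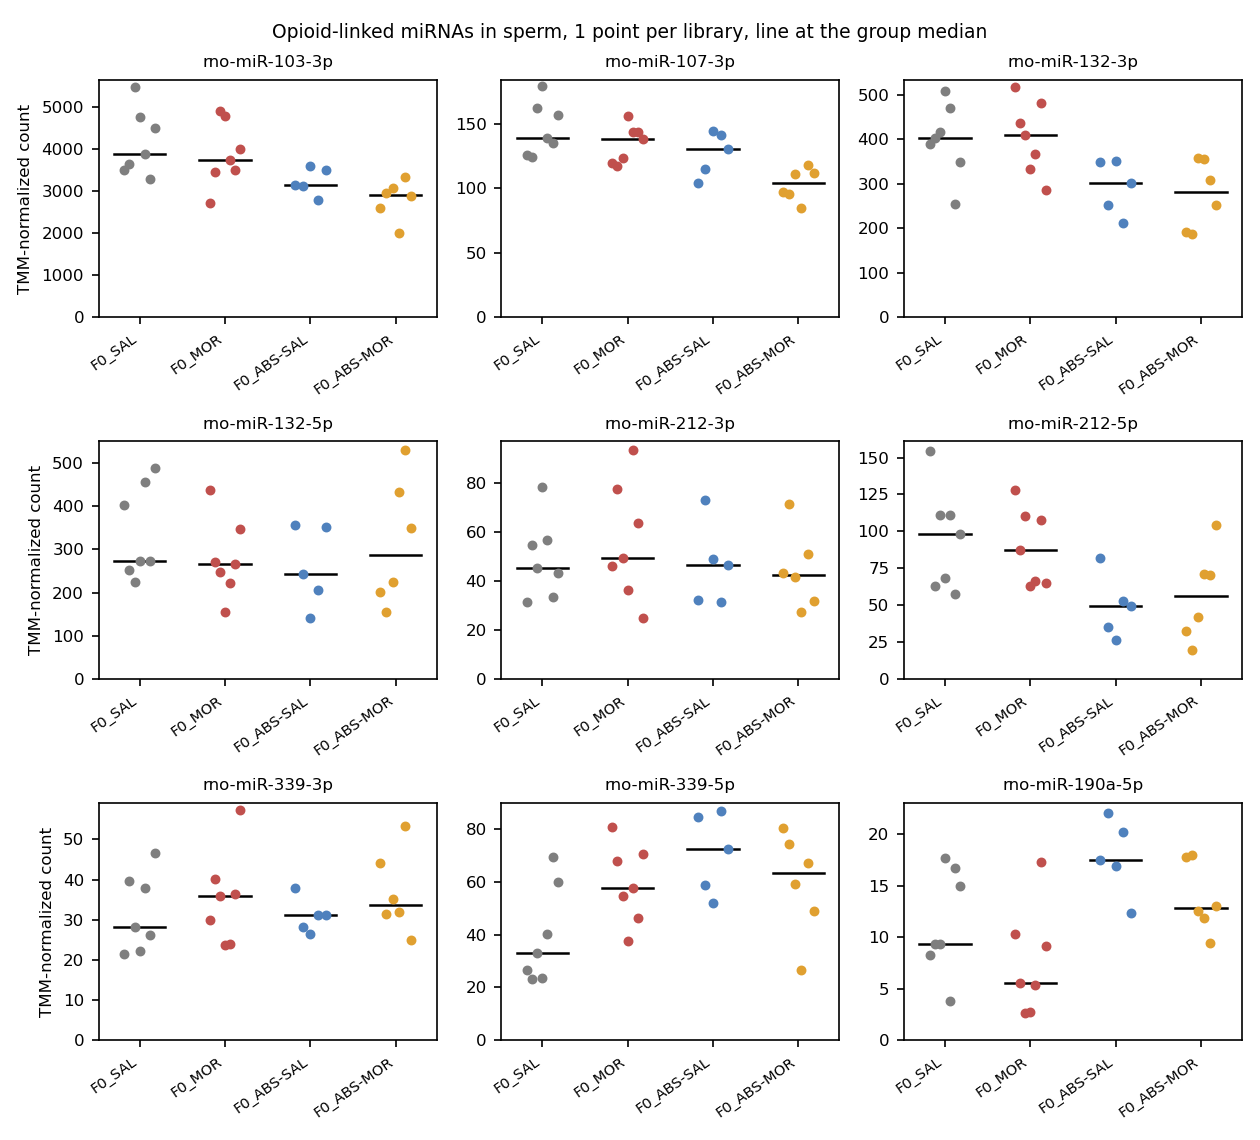
TMM-normalized counts of the 9 members that passed the filter, 1 point per library with a line at the group median, on linear axes from 0, for F0_SAL (n = 7), F0_MOR (n = 7), F0_ABS-SAL (n = 5) and F0_ABS-MOR (n = 6). Groups overlap for every member, and miR-339-5p is lowest and miR-212-5p highest in the F0_SAL libraries by group mean.

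The study used comparisons of the same treatment at different times to explore differences between collection timepoints. It described these timepoints as differing in age and in closeness to behavioural testing. The 2 morphine groups differ also by 90 days of abstinence from morphine. The timepoint comparisons share their libraries with the morphine comparisons above. Between F0_ABS-SAL and F0_SAL, 2 of 9 members were called, 1 higher and 1 lower, beside a background of 33.1% of all miRNAs tested (22.4% higher and 10.7% lower). At any fold change the adjusted p was under 0.1 for the same number, 2 of 9, against 40.7% of all miRNAs, and the unadjusted p was under 0.05 for 4 of 9, against 42.9%. The median log2 fold change of the 9 members was -0.20, against 0.00 over all 317.

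miR-339-5p was higher in the abstinent saline group. Its normalized counts were 84.5, 58.6, 51.9, 86.6 and 72.2 in the 5 F0_ABS-SAL libraries, all above the F0_SAL mean of 39.4 and 3 of them above every F0_SAL library. The log2 fold change was 0.83 (SE 0.29, interval 0.24 to 1.42, adjusted p of 0.0330 in edgeR), and the exact permutation p was 0.0202. miR-339-5p was called in 24 of the 25 fits that left out 1 library and in 9 of 9 alternative fits. The exception was the fit without library R, the F0_ABS-SAL library with the high muscle sum. In that fit the log2 fold change was 0.69 and the adjusted p 0.130 in edgeR, and 1 of 9 members was called. Across the 25 libraries with group means removed, miR-339-5p had a Pearson r of -0.20 with the muscle sum. Over all the marker lists its r lay between -0.40 (neural) and 0.43 (erythroid). These are descriptions within groups, which do not bear on the difference between groups.

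miR-212-5p was lower in the abstinent saline group. Its normalized counts were 81.6, 35.1, 26.6, 52.5 and 49.3 in F0_ABS-SAL, whereas F0_SAL ran from 57.6 through a median of 98.1 to 154. The means were 49.0 ± 21.0 (SD, n = 5) and 94.8 ± 34.5 (SD, n = 7), and 4 of 5 F0_ABS-SAL libraries were below every F0_SAL library. The log2 fold change was -0.95 (SE 0.34, interval -1.64 to -0.26, adjusted p of 0.0386 in edgeR), with an exact permutation p of 0.0164. It was called in all 25 fits that left out 1 library. With total count alone in place of TMM scaling the call was lost (-0.61, adjusted p of 0.226), under a scaling that moved the median of all miRNAs in this comparison to 0.39.

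Other members moved less between the saline groups. miR-103-3p had 3144, 3106, 3579, 2793 and 3484 normalized counts in F0_ABS-SAL, all below the F0_SAL mean of 4136. Its log2 fold change was -0.36 (interval -0.71 to -0.01, adjusted p of 0.107 in edgeR), and that of miR-132-3p was -0.44 (interval -0.87 to -0.01, adjusted p also 0.107). With total count alone, the value of miR-103-3p was 0.01. The arms of miR-132 had close values here, with a log2 fold change of -0.38 for miR-132-5p (interval -0.98 to 0.22) beside the -0.44 of miR-132-3p. Those of miR-212 and miR-339 had unlike values. miR-212-3p had a log2 fold change of -0.08 beside the -0.95 of miR-212-5p, and miR-339-3p of -0.04 beside the 0.83 of miR-339-5p. The intervals of miR-212-3p (-0.71 to 0.55) and miR-212-5p overlapped, and the difference between these arms was not tested. The values of miR-212-3p and miR-339-3p became positive with total count alone (0.30 and 0.34). miR-190a-5p, with 17.5, 22.1, 16.9, 20.3 and 12.3 in F0_ABS-SAL, was above the F0_SAL mean of 11.5 in all 5 libraries (log2 fold change 0.59, interval -0.19 to 1.37, adjusted p of 0.232 in edgeR).

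Between F0_ABS-MOR and F0_MOR, 0 of 9 members were called, beside a background of 21.1% of all miRNAs (35 miRNAs higher and 32, or 10.1%, lower). Leaving aside the fold change threshold, 3 of 9 members had an adjusted p under 0.1, beside 25.6% of all miRNAs. These 3 were lower after abstinence, and 2 of them are the near-identical pair miR-103-3p and miR-107-3p. In 9 alternative fits their log2 fold changes stayed negative, but the adjusted p of each fit's own test (edgeR, DESeq2 or limma) varied. It ran from 0.0204 to 0.249 for miR-103-3p, from 0.0515 to 0.411 for miR-107-3p and from 0.0180 to 0.276 for miR-132-3p. At an unadjusted p under 0.05, edgeR found 5 of the 9 members, beside 32.5% of all miRNAs.

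miR-103-3p ran from 2716 through 3723 to 4895 in F0_MOR and from 2007 through 2910 to 3333 in F0_ABS-MOR, and all 6 F0_ABS-MOR libraries were below the F0_MOR mean. Its log2 fold change was -0.46 (SE 0.16, interval -0.80 to -0.13, adjusted p of 0.0549 in edgeR). miR-107-3p ran from 118 through 138 to 156 in F0_MOR and from 85.0 through 104.35 to 118 in F0_ABS-MOR, and 5 of 6 F0_ABS-MOR libraries were below every F0_MOR library. Its log2 fold change was -0.38 (SE 0.16, interval -0.71 to -0.05, adjusted p of 0.0955 in edgeR), with an exact permutation p of 0.00175. miR-132-3p ran from 286 through 410 to 516 in F0_MOR and from 187 through 280 to 358 in F0_ABS-MOR, with 3 of 6 below every F0_MOR library. Its log2 fold change was -0.55 (SE 0.20, interval -0.96 to -0.14, adjusted p of 0.0585 in edgeR), short of the fold change threshold. In 5 of the 25 fits that left out 1 library, miR-132-3p passed both thresholds, among them the fit without library Q, the F0_ABS-MOR library with the high muscle sum (-0.62, adjusted p of 0.0555 in edgeR).

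The members called between the saline groups were not called here. miR-339-5p had the same mean in both morphine groups, 59.4 ± 19.5 in F0_ABS-MOR and 59.2 ± 14.8 in F0_MOR (log2 fold change 0.00, interval -0.56 to 0.57). miR-212-5p, at 56.8 ± 31.2 against 89.7 ± 26.2, had a log2 fold change of -0.67 (interval -1.32 to -0.02, adjusted p of 0.142 in edgeR). The timepoint effect with saline minus that with morphine is the same quantity as the interaction above, 0.83 for miR-339-5p and -0.28 for miR-212-5p, and neither was called. miR-190a-5p had a log2 fold change of 0.90 (interval 0.09 to 1.71, adjusted p of 0.104 in edgeR) from 7.57 ± 5.17 in F0_MOR to 13.8 ± 3.402 in F0_ABS-MOR, with all 6 libraries above the F0_MOR mean. With total count alone miR-190a-5p was called in both timepoint comparisons, at 1.02 between the saline groups and 1.10 between the morphine groups. In the timepoint comparisons the muscle, epithelial and endothelial sums were higher by group median after abstinence. Between the saline groups 3 of 4 sperm markers were called lower, beside 10.7% of all miRNAs. In that comparison 3 of 4 muscle, 3 of 5 epithelial and 2 of 2 endothelial markers were called higher, beside 22.4%. Between the morphine groups 0 of 4 sperm markers were called. There 1 of 4 muscle, 1 of 5 epithelial and 2 of 2 endothelial markers were called higher, beside 35 of all 317 miRNAs. Both erythroid markers tested were called lower there (median log2 fold change -0.80), beside 10.1% of all miRNAs. So were 1 of 5 leukocyte and 1 of 3 neural markers. Across the 25 libraries with group means removed, miR-132-3p had a Pearson r of -0.56 with the erythroid sum, a description of libraries that share depth and scaling. The part of these markers in the values of the members was not tested.

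**Figure D3:**
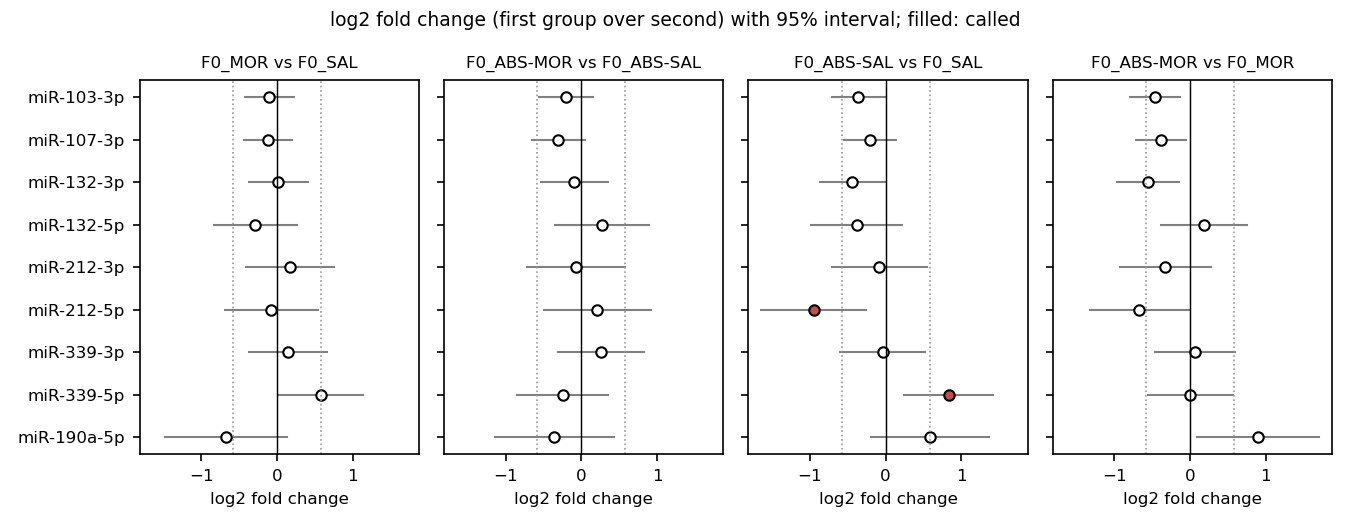
log2 fold change of the first named group over the second (points) with 95% intervals (lines) for the 9 members in 4 comparisons; dotted lines mark -0.58 and 0.58. Filled points passed both thresholds, which only miR-212-5p and miR-339-5p did, between F0_ABS-SAL and F0_SAL.

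Ratios within a family need no scaling between libraries, and were taken as log2 of raw counts with 0.5 added to each. They were compared with 12 exact permutation tests, and the adjusted values are Benjamini-Hochberg values over the 12. miR-103-3p exceeded miR-107-3p by a mean log2 ratio of 4.81 ± 0.14 in F0_SAL and 4.82 ± 0.26 in F0_MOR. After abstinence it was 4.66 ± 0.23 with saline and 4.75 ± 0.13 with morphine, so the group means lay between 25.3-fold and 28.2-fold. The 4 comparisons of this ratio differed by at most 0.14 in size on the log2 scale (F0_ABS-SAL against F0_SAL), close to the SD of 0.14 in F0_SAL and under that of 0.23 in F0_ABS-SAL. The lowest exact permutation p for this ratio was 0.223. miR-132-3p exceeded miR-212-3p by 3.04 ± 0.29, 2.94 ± 0.55, 2.70 ± 0.59 and 2.64 ± 0.80 in the 4 groups in the same order, and the comparisons differed by at most 0.34 in size (lowest exact p of 0.218). Neither ratio gave a detectable difference between groups in these tests. For miR-103-3p and miR-107-3p the tests cannot show a steady balance, because reads of the abundant member may be counted for the other.

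The arm ratio of miR-339 was more variable. The log2 ratio of 5p to 3p ran from -0.75 through 0.22 to 1.38 in F0_SAL and from 0.29 through 0.65 to 1.41 in F0_MOR. It was 1.15, 1.04, 0.96, 1.45 and 1.21 in F0_ABS-SAL, and ran from -0.27 through 0.80 to 1.23 in F0_ABS-MOR. F0_SAL was thus the group in which both arms were closest in count, and 6 of its 7 libraries were below every F0_ABS-SAL library. The mean was 0.92 higher in F0_ABS-SAL than in F0_SAL (exact permutation p of 0.0126, adjusted 0.152), 0.51 higher in F0_MOR than in F0_SAL (exact p of 0.102, adjusted 0.408), and lower by 0.52 in F0_ABS-MOR than in F0_ABS-SAL (exact p of 0.0519, adjusted 0.312). None passed at an adjusted 0.1.

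**Figure D4:**
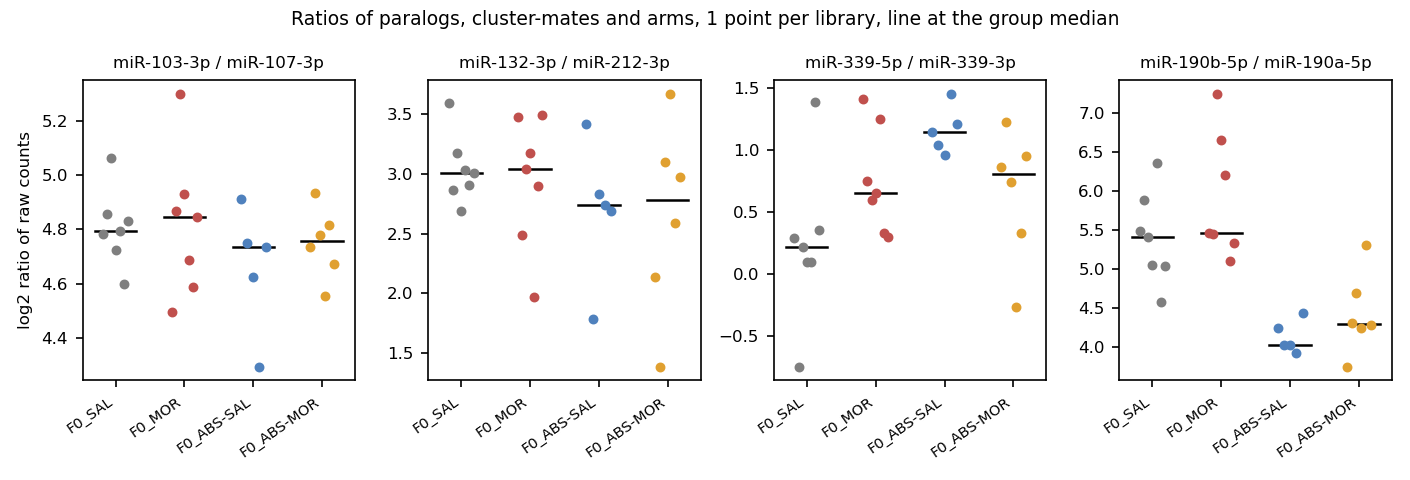
log2 ratios of raw counts per library (points, with a line at the group median) for miR-103-3p to miR-107-3p, miR-132-3p to miR-212-3p, miR-339-5p to miR-339-3p and miR-190b-5p to miR-190a-5p, with a separate vertical axis for each. The ratio of miR-103-3p to miR-107-3p stays within 4.30 to 5.30 in all libraries, and every F0_ABS-SAL library is below every F0_SAL library in the ratio of miR-190b-5p to miR-190a-5p.

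Other miRNAs can act through the same seeds or a seed offset by 1 base. Of 7 such relatives, all tested, 0 were called between treatments at either timepoint. Between the saline groups 4 were higher and 1 lower, and between the morphine groups 2 were higher and 0 lower. These counts, 5 of 7 and 2 of 7, stood beside the backgrounds of 33.1% and 21.1% of all miRNAs. The offset relatives of miR-103-3p and miR-107-3p from the miR-15/16 family gave mixed values between the saline groups. miR-195-5p had a log2 fold change of 1.07, miR-497-5p of 1.49 and miR-322-5p of 2.02, all called higher, while miR-16-5p and miR-15b-5p, both at -0.14, were not called. miR-190b-5p, with the seed of miR-190a-5p, was called lower between the saline groups, from 471 ± 92.9 to 313 ± 39.0 normalized counts (log2 fold change -0.59, adjusted p of 0.0309 in edgeR). Between the morphine groups it stood at -0.51 (adjusted p of 0.0618 in edgeR), under the fold change threshold.

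A wider list of 18 miRNAs that opioid studies have named, among them let-7 miRNAs, reported to repress the mu-opioid receptor, was read beside the members. Of its 16 tested, 0 were called between treatments at either timepoint. Their median log2 fold change was 0.27 for F0_MOR against F0_SAL, with 11 of 16 above 0, beside a median of 0.06 over all 317 miRNAs, and 0.01 between the abstinent groups, beside -0.01. The lowest adjusted p of the 16 for F0_MOR against F0_SAL was 0.547 in edgeR. Several of the 16 are let-7 miRNAs, related to each other, so the 16 are not independent. Between the saline groups 1 was higher (let-7e-5p, 0.80) and 2 lower (let-7a-5p at -0.85 and miR-375-3p at -0.77). Between the morphine groups 0 were higher and 5 lower, with log2 fold changes of -0.80 for let-7a-5p, -0.83 for miR-375-3p, -0.70 for miR-98-5p, -0.67 for miR-93-5p and -0.58 for let-7g-5p. The median over the 16 was 0.01 between the saline groups and -0.18 between the morphine groups, against 0.00 over all 317 miRNAs in each. The share called, 3 of 16 and 5 of 16, stood beside backgrounds of 33.1% and 21.1%.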

How the data were processed

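The authors purified sperm RNA, made libraries with a NEBNext kit for small RNA, and used sRNAbench to trim reads, align them to the rat genome (rn6 per the labels) with 1 mismatch allowed and a minimum of 2 reads, and annotate them to miRBase 22. The authors deposited raw counts per mature miRNA, 1 column per library, without normalization. No per-sample column was left unused (0). Here the counts were analysed in R 4.3.3 with edgeR 4.0.16, using TMM factors, the default filter on low counts and 1 model of 4 groups. The script was tested on simulated data. The SE was taken as the size of the log2 fold change over the square root of F. Exact permutation tests were two-sided, on log2 CPM with a prior count of 2, and could reach at best a p of 0.000583, 0.00216, 0.00126 and 0.000583 for F0_MOR against F0_SAL, F0_ABS-MOR against F0_ABS-SAL, F0_ABS-SAL against F0_SAL and F0_ABS-MOR against F0_MOR. The labels call the samples biological replicates. Counting error is larger for members with few reads.

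The members, the list of other opioid miRNAs and the marker lists were chosen with earlier results of these data known. All arms of the named miRNAs were named. Beyond them, miRNAs sharing a seed, the other opioid list, and for each tested member the miRNA most like it (3 for the most abundant members) were named. Alternatives were DESeq2 1.42.0, limma 3.58.1 (voom with sample weights), DESeq2 size factors, total count alone, a TMM factor from miRNA and ncRNA counts joined, no filter, at least 10 counts in every library, only the compared groups, log2 total count as a covariate, no fold change threshold, an adjusted p under 0.05, a pseudocount of 2 for ratios, and each library left out in turn.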

Additional observations from a re-analysis of the deposited data

How the results depend on the processing

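In the comparison of F0_ABS-SAL with F0_SAL, 2 members were called under each of the 11 alternatives that kept all libraries, and 1 to 3 when 1 library was left out. With total count alone the 2 members were miR-339-5p and miR-190a-5p. Over all miRNAs tested, total count alone called 111 of 317 in this comparison, 110 of them higher. There limma called 95 of 317, and at least 10 counts in every library gave 73 of 225. Between F0_ABS-MOR and F0_MOR, 3 members were called without a fold change threshold, 3 with limma, 1 with total count alone, and 0 to 2 with 1 library left out. Over all 317 miRNAs the same settings called 81 without the threshold, 90 with limma and 71 with total count alone. The count of members was 1 or 2 without any one of the libraries P (F0_SAL), M, N, T and U (F0_MOR), and J, Q, S and X (F0_ABS-MOR), 2 of them without M. Counts over all miRNAs with 1 library left out are not given here, so these member counts have no background beside them. No member was called between treatments under any alternative run. No paired analysis was possible because the columns carry no replicate numbers.

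Some values changed sign with the setting, and the cause was not tested. With total count alone, F0_MOR against F0_SAL gave 0.088 for miR-103-3p, 0.10 for miR-212-5p and 0.079 for miR-107-3p (0.093, 0.14 and 0.081 in log2 CPM), and F0_ABS-SAL against F0_SAL gave 0.014 for miR-103-3p, 0.18 for miR-107-3p, 0.30 for miR-212-3p and 0.34 for miR-339-3p (0.031, 0.17 and 0.27 in log2 CPM for the first 3). Total count alone also gave 0.15 for miR-339-5p in log2 CPM between the morphine groups, 0.090 for the interaction of miR-339-3p, and 0.057 and 0.11 for the mean morphine effect of miR-132-3p and miR-132-5p. It moved the median of all miRNAs to 0.25 (F0_MOR against F0_SAL), 0.39 (between saline groups) and 0.18 (between morphine groups). For miR-132-3p, F0_MOR against F0_SAL was -0.022 with DESeq2, -0.019 with DESeq2 size factors (-0.014 in log2 CPM), -0.070 with the joined TMM factor and -0.058 without a filter. The joined factor gave 0.018 for miR-212-3p and 0.037 for miR-339-3p between the saline groups, and -0.021 and -0.072 for the mean morphine effect of miR-212-5p and miR-212-3p. At least 10 counts in every library gave 0.011 and 0.045 for the same saline values, and DESeq2 size factors -0.016 for miR-339-3p in log2 CPM. limma gave -0.045 for miR-132-5p between the abstinent groups, 0.047 for miR-212-3p between the saline groups, -0.070 for miR-132-5p between the morphine groups and -0.020 for the mean effect of miR-212-5p. Total count as a covariate gave 0.019 for miR-212-3p between the abstinent groups, -0.17 for miR-339-5p between the morphine groups and -0.097 for the mean effect of miR-212-5p.

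Leaving out 1 library turned the sign of some values within these ranges of the log2 fold change. For F0_MOR against F0_SAL they were -0.13 to 0.052 for miR-132-3p, -0.043 to 0.27 for miR-212-3p, -0.25 to 0.083 for miR-212-5p and -0.065 to 0.21 for miR-339-3p. Between the abstinent groups they were -0.21 to 0.010 for miR-132-3p, -0.27 to 0.15 for miR-212-3p and -0.028 to 0.49 for miR-212-5p. Between the saline groups they were -0.30 to 0.044 for miR-212-3p and -0.20 to 0.026 for miR-339-3p. Between the morphine groups they were -0.022 to 0.32 for miR-132-5p, -0.071 to 0.25 for miR-339-3p and -0.11 to 0.16 for miR-339-5p. The interaction ran from -0.020 to 0.13 for miR-103-3p and from -0.040 to 0.17 for miR-132-3p, and the mean morphine effect from -0.15 to 0.064 for miR-132-5p, -0.072 to 0.17 for miR-212-3p and -0.057 to 0.20 for miR-212-5p. Differences in log2 CPM ran from -0.079 to 0.10 (miR-132-3p), -0.015 to 0.29 (miR-212-3p) and -0.15 to 0.077 (miR-212-5p) for F0_MOR against F0_SAL. They ran from -0.21 to 0.11 (miR-212-3p) and -0.10 to 0.36 (miR-212-5p) between the abstinent groups, and from -0.26 to 0.033 (miR-212-3p) and -0.068 to 0.11 (miR-339-3p) between the saline groups. Between the morphine groups they ran from -0.067 to 0.29 (miR-132-5p), -0.038 to 0.19 (miR-339-3p) and -0.14 to 0.17 (miR-339-5p).

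Among the ratios, miR-339-5p to miR-339-3p between the abstinent groups was -0.51 with a pseudocount of 2 (exact permutation p of 0.0498) and -0.64 to -0.34 with 1 library left out (exact permutation p from 0.00794 to 0.129). It ran from 0.35 to 0.71 for F0_MOR against F0_SAL, with exact permutation p from 0.00524 (without library V of F0_SAL) to 0.200, and from -0.23 to 0.069 between the morphine groups. miR-103-3p to miR-107-3p ran from -0.0076 to 0.15 between the abstinent groups, -0.12 to 0.012 between the morphine groups and -0.071 to 0.063 for F0_MOR against F0_SAL. miR-132-3p to miR-212-3p ran from -0.28 to 0.20 between the abstinent groups, -0.20 to 0.057 for F0_MOR against F0_SAL and -0.53 to -0.12 between the saline groups, with exact permutation p from 0.0182 (without library E of F0_ABS-SAL) to 0.573. Depth limits both arms of miR-190a, since single libraries hold as few as 2 reads of the 5p arm and at most 2 of the 3p arm.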

Other observations

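The ratio of miR-190b-5p to miR-190a-5p, a pair with the same seed, was looked at after the values of both had been seen, so it is given as a description with no test. Its log2 value ran from 4.57 through 5.41 to 6.35 in F0_SAL and from 5.10 through 5.45 to 7.24 in F0_MOR. It was 4.24, 4.02, 4.02, 3.92 and 4.43 in the 5 F0_ABS-SAL libraries and ran from 3.74 through 4.29 to 5.30 in F0_ABS-MOR. The saline groups did not overlap, and 5 of 6 F0_ABS-MOR libraries were below every F0_MOR library. The mean ratio was 42.2-fold in F0_SAL, 60.5-fold in F0_MOR, 17.5-fold in F0_ABS-SAL and 21.5-fold in F0_ABS-MOR. The ratio does not depend on the scaling of libraries, but the raw counts of miR-190a-5p behind it were as low as 2 and 3 in F0_MOR and F0_SAL. Counts of 1 were absent from the matrix, which bears most on miRNAs with few reads. Median depth was lower in F0_SAL (1701012) and F0_MOR (1428308) than in F0_ABS-SAL (2334377) and F0_ABS-MOR (2134169). The part of depth in this ratio was not tested.

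Arms of miR-132 and miR-212 were compared in the same way, after their values had been seen and with no test. The log2 ratio of miR-212-5p to miR-212-3p had means of 0.92, 0.75, 0.05 and 0.22 in F0_SAL, F0_MOR, F0_ABS-SAL and F0_ABS-MOR, with SDs of 0.79, 0.70, 1.02 and 1.29, so that the groups overlapped widely. That of miR-132-5p to miR-132-3p had means of -0.27, -0.58, -0.23 and 0.11. Across the 25 libraries, with group means removed, log2 CPM of miR-132-5p and miR-212-5p had a Pearson r of 0.72, while that of miR-212-5p and miR-212-3p was -0.38 and that of miR-132-3p and miR-212-3p 0.19. These correlations share library, depth and scaling and are descriptions only.

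The same measure over the 316 other tested miRNAs named the nearest ones to each member. For miR-103-3p these were miR-598-3p (0.67), miR-20a-5p (0.65) and miR-203a-3p (0.64). For miR-132-3p they were miR-184 (0.66), miR-130b-5p (0.56) and miR-9b-5p (0.52). miR-132-5p stood nearest to miR-743a-5p (0.89), miR-743b-5p (0.88) and miR-191a-5p (0.85). The nearest to miR-212-5p was let-7a-5p (0.85), to miR-107-3p miR-103-3p (0.62), to miR-339-5p let-7f-2-3p (0.75), to miR-212-3p miR-342-3p (0.70), to miR-339-3p miR-363-3p (0.61) and to miR-190a-5p miR-742-5p (0.55). Against the summed sperm markers, miR-212-5p had an r of -0.72 and miR-212-3p of 0.57 within groups.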
